A study of Mus musculus with 33 samples.

Results

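The limb and positional genes followed here are 10 developmental transcription factor genes outside the Hox clusters, listed by name out of 37583 gene IDs in the count files. They are the T-box genes Tbx2, Tbx4, Tbx5, Tbx15 and Tbx18, the paired-type homeobox genes Pitx1 and Shox2, and the TALE-class homeobox genes Meis1, Meis2 and Pbx3. Of the 10 genes, 9 passed the filter on low counts and were tested among 17326 genes, and Shox2 had 0 reads in all 33 libraries.

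In the vertebrate embryo these factors give mesenchyme its place along the trunk and limb. In the mouse, Pitx1 and Tbx4 act in the hindlimb bud and Tbx5 in the forelimb bud, Tbx15 and Tbx18 are used in the mesenchyme of the body wall, dermis and limb, and Tbx2 is a transcriptional repressor of the limb margins and the heart. Meis proteins mark the proximal limb and bind DNA together with Pbx and Hox partners. Fibroblasts in culture keep part of such a positional code from the site they were taken from.

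Poly-A RNA was sequenced from reprogramming cells at days 3, 6, 9 and 12 and at the iPS stage, each sorted by flow cytometry into SSEA1+ and SSEA1- fractions, and from mouse embryonic fibroblasts (MEFs), the cells that reprogramming started from. SSEA1 is a carbohydrate antigen carried by mouse pluripotent cells. The labels give the mixed strain 129SV/Jae/C57BL6J, MEF medium for MEFs, and ES medium with "dox" and "AA" for the reprogramming groups. In every comparison against MEFs, reprogramming therefore cannot be told apart from medium, "dox" and "AA". How the reprogramming factors were introduced and from which part of the embryo the MEFs came are not given in the sources used here. Each of the 11 groups held 3 libraries, and the labels do not say that these came from separate animals or cultures, so the spread behind each p-value may be technical.

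Reads counted in genes ran between 8.928 M and 41.69 M per library, with a median of 23.15 M. Levels are counts per M reads (CPM), normalised between libraries by the trimmed mean of M-values (TMM). A count of 0 allows up to 3 reads, or 0.0757 to 0.417 CPM depending on the library, a limit that covers counting error only. The 12 fibroblast markers were all called lower in day 3 SSEA1+ cells than in MEFs. Their summed level averaged 1635 ± 353 CPM in SSEA1+ and 4568 ± 1960 CPM in SSEA1- cells of day 3, against 92410 ± 5590 CPM in MEFs (SD, n = 3 each). In iPS SSEA1- cells, replicate 3 stood apart, with a summed level of 10 pluripotency markers of 2742 CPM beside 214 and 534 CPM in replicates 1 and 2. MEF replicate 2 had 181 CPM of 8 macrophage markers, beside 4.36 and 27.8 CPM in replicates 1 and 3. Replicate 2 of the SSEA1- cells was likewise high in these markers from day 6 on, at 211, 292, 364 and 559 CPM at days 6, 9 and 12 and the iPS stage, where replicates 1 and 3 lay between 15.7 and 40.2 CPM. Calls that change without one of these libraries are given without it as well.

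By the iPS stage every tested member was lower in SSEA1+ cells than in MEFs, but they were called lower at different stages and came down to different depths. Tbx5 and Tbx4 were called lower from day 6, Tbx15 from day 9 and Tbx18 from day 12, although all Tbx15 libraries lay below MEFs from day 3. Meis1 was called lower at day 3 but not at days 6, 9 and 12. Its change of smallest p came between day 12 and the iPS stage. This is the order of the calls, and differences in timing between members were not tested. Tbx2 was higher than in MEFs from day 3 to day 9 before it came down. A gene was called where edgeR's quasi-likelihood test gave a Benjamini-Hochberg adjusted p under 0.05 over all tested genes and the change was at least 2-fold. Overlap of libraries between groups was looked at for the members only and not counted over all genes, so it is description. In bulk RNA, fewer cells of a type and less RNA per cell cannot be told apart.

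Against MEFs, 9 of 9 members were called lower in iPS SSEA1+ cells, where 50.5% of all tested genes were called, 27.9% higher and 22.5% lower. At day 12, 6 members were lower and 0 higher in SSEA1+ cells, with 46.6% of all genes called, 26.5% higher and 20.2% lower. At day 3 the count was 1 higher and 1 lower (32.3% of all genes called, 15.6% higher and 16.7% lower). At day 6 it was 1 higher and 3 lower (33.5%, with 16.9% higher and 16.6% lower) and at day 9 1 higher and 4 lower (38.6%, with 20.6% higher and 18% lower). The median log2 fold change of the 9 members in SSEA1+ cells against MEFs was -2.96 at day 12 and -3.30 at the iPS stage, beside 0.26 and 0.22 over all tested genes. The day 3 count was 0 without day 3 SSEA1+ replicate 1, 1 without MEF replicate 3 and 3 without MEF replicate 2. Without MEF replicate 2 the later counts were 4, 4, 6 and 9. Fibroblast markers were lower in the same comparisons, 12 of 12 at every SSEA1+ stage, and their part in the members' changes was not tested.

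In SSEA1- cells the same comparisons called 1 member lower at days 3, 6 and 9, where 30.2%, 28.2% and 26.6% of all genes were called, 15.3%, 15.8% and 14.9% higher and 14.9%, 12.4% and 11.6% lower. They called 3 lower at day 12 (28.1% of all genes, 17% higher and 11.1% lower) and 4 lower at the iPS stage (26.8%, with 19.1% higher and 7.7% lower). The share of members called was below the share over all genes at days 3, 6 and 9. Without MEF replicate 1 the count was 2 at day 6 and 2 at day 9, and it was also 2 at day 9 without day 9 SSEA1- replicate 2. At day 12 the count was 1 without SSEA1- replicate 3. In iPS cells it was 3 without SSEA1- replicate 3, the library that stood apart. Without MEF replicate 2 the counts were 1, 1, 1, 3 and 4.

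**Figure D1:**
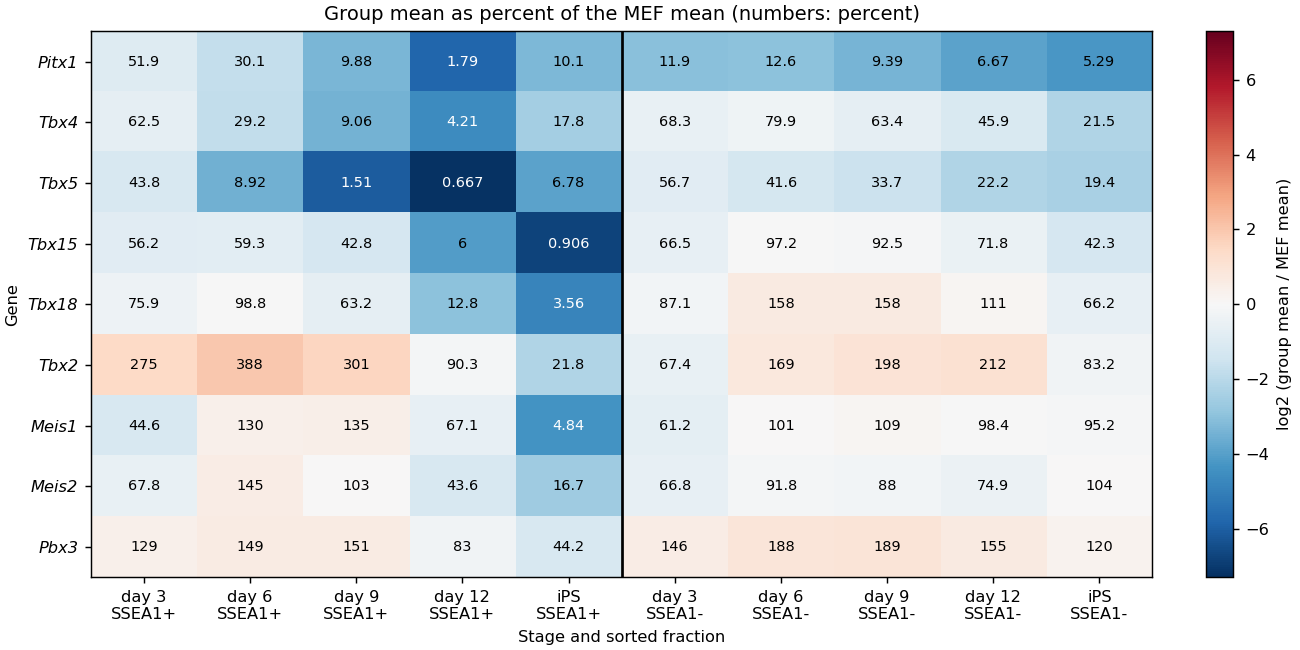
Each cell gives a gene's mean CPM in a group (3 libraries) as a percentage of its MEF mean, with SSEA1+ groups left of the line and SSEA1- groups right of it, and colour on a log2 scale. Most of the deep blue lies in the SSEA1+ columns of day 12 and the iPS stage, down to 0.667% for Tbx5 and 0.906% for Tbx15. Pitx1 is the lowest gene in every SSEA1- column, at 5.29% to 12.6%. Tbx5 is also below MEFs in each of them, at 19.4% to 56.7%.

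The DNA just upstream of the start of transcription is shown for the members whose profiles the results contrast and for which RefSeq gave a promoter: Tbx4, which came down early and was higher again at the iPS stage, Tbx18, which came down late, and the paralogues Meis1 and Meis2, which had similar profiles. The windows hold the 250 bases before the start, 5′ to 3′ along the gene, from RefSeq on build GRCm38.p6, which is not the build mm9 named for the counts. They lie at chr11:85896515-85896764 on the plus strand (Tbx4), chr9:87731261-87731510 on the minus strand (Tbx18), chr11:19018970-19019219 on the minus strand (Meis1) and chr2:116064620-116064869 on the minus strand (Meis2). Capitals mark matches to a TATA element (TATAAA) or a CCAAT element (CCAAT) on either strand.
Tbx4: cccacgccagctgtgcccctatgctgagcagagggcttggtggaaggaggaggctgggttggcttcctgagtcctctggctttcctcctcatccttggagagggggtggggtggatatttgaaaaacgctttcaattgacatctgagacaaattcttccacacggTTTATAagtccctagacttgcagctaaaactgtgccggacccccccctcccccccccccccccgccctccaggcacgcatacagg
Tbx18: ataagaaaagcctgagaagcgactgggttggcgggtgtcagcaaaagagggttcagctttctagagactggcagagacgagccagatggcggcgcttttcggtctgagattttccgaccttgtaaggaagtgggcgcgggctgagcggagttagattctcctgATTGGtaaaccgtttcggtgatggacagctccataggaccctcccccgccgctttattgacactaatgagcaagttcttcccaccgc
Meis1: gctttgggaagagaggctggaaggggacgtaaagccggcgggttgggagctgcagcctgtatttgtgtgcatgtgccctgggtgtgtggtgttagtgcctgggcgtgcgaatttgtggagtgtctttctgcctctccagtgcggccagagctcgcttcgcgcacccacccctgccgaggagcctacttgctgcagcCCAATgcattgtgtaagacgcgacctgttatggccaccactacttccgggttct
Meis2: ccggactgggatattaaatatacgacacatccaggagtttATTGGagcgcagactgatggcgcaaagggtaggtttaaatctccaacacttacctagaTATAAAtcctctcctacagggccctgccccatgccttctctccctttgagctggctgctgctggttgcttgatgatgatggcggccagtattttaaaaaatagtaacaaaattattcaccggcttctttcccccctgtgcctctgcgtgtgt
Across 32841 promoters of the same length, 12.4% held the TATA letters and 33.9% the CCAAT letters. Tbx4 held TATAAA on the reverse strand with its first base 85 bases before the start, and Meis2 held it on the forward strand at 152 bases. Tbx18 held CCAAT on the reverse strand at 87 bases, Meis1 on the forward strand at 54 bases and Meis2 on the reverse strand at 210 bases. The T-box motif GGTGTGA, the MEIS core TGACAG and the PITX core TAATCC, searched on both strands and found in 3.33%, 15.9% and 6.25% of promoters, were in none of the 4 windows. The window of Tbx18 held 15 CpG dinucleotides, Meis1 13, Meis2 7 and Tbx4 6, beside a median of 6 over all promoters.

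**Figure D2:**
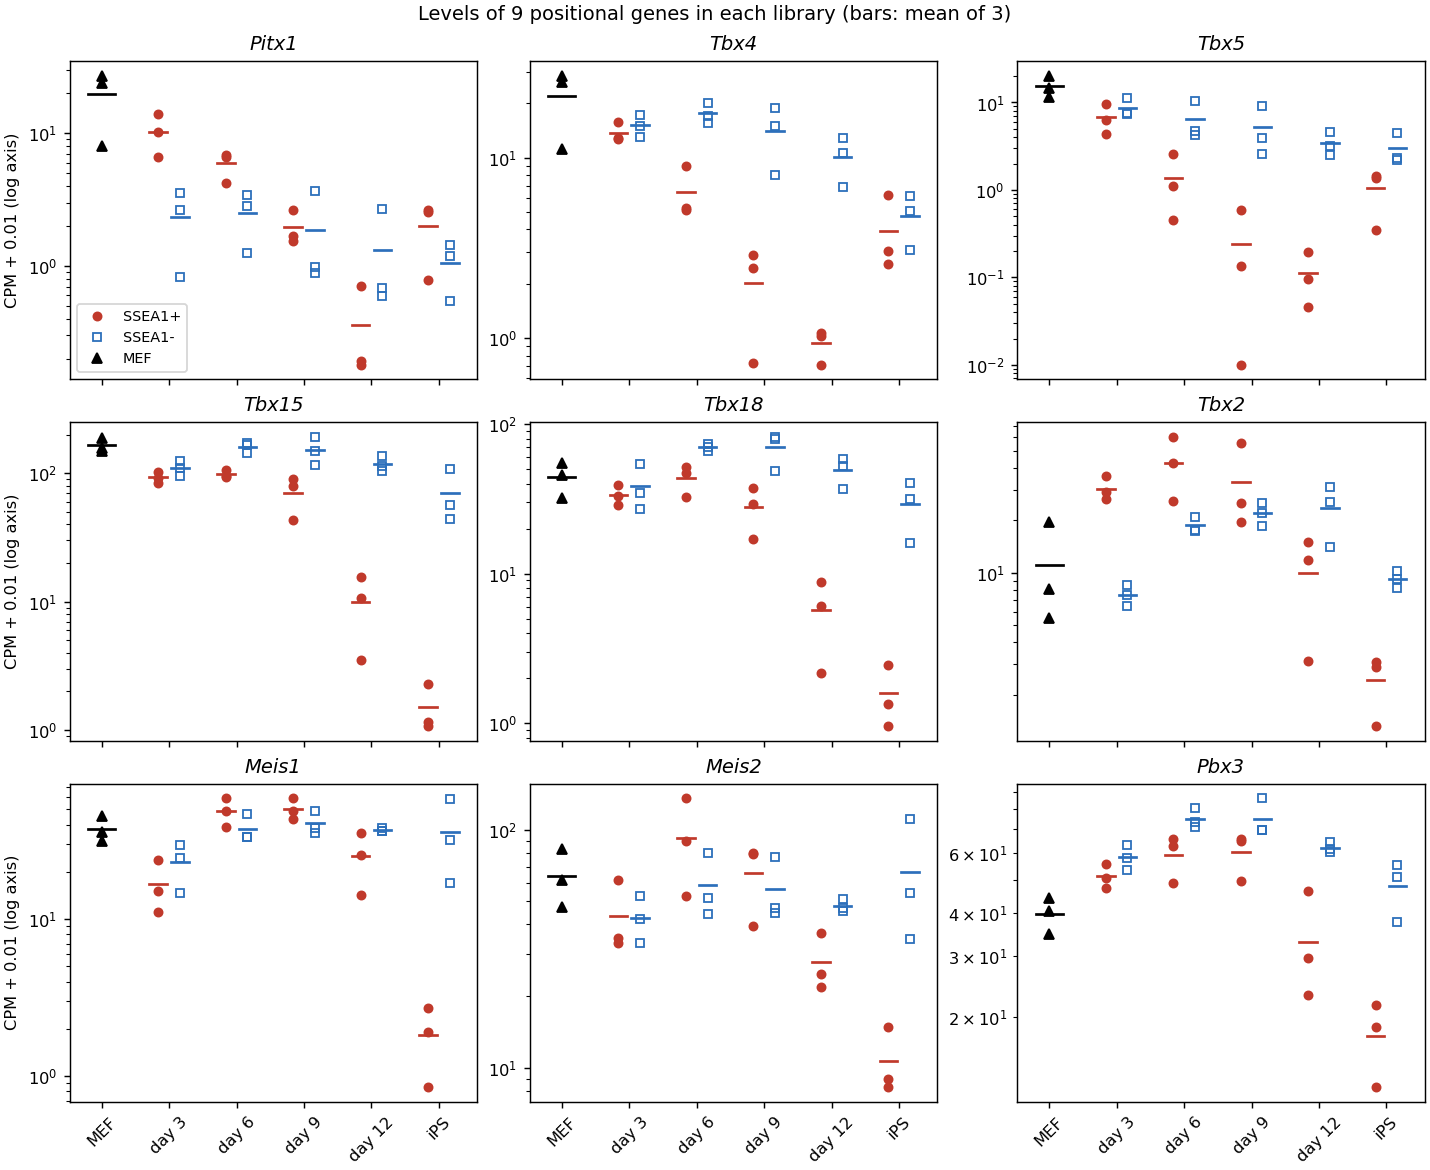
Normalised CPM plus 0.01 on a log axis in each library by stage, for the 9 members with reads: filled circles are SSEA1+ libraries, open squares SSEA1- libraries, triangles MEFs and bars the mean of 3. In SSEA1+ cells Tbx4, Tbx5 and Pitx1 are lowest at day 12 and higher at the iPS stage, whereas Tbx15, Tbx18, Tbx2, Meis1, Meis2 and Pbx3 are lowest at the iPS stage. The single point at the bottom of the Tbx5 panel is a library with 0 reads.

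Tbx4 and Tbx5, paralogous T-box genes of the hindlimb and the forelimb, were both expressed in MEFs. Tbx4 was at 28.5, 11.2 and 26.4 CPM in MEFs, at 15.8, 12.6 and 12.9 CPM in SSEA1+ cells of day 3, at 8.97, 5.13 and 5.23 CPM at day 6, at 2.86, 2.42 and 0.718 CPM at day 9, at 1.02, 1.06 and 0.7 CPM at day 12 and at 6.21, 3.01 and 2.57 CPM at the iPS stage. From day 6 on, the SSEA1+ libraries lay below all MEF libraries, and at day 12 all 3 lay below those of every other stage but the lowest library of day 9. Against MEFs the log2 fold change was -1.77 ± 0.43 (SE) at day 6, with an adjusted p of 0.0013, and -4.56 ± 0.49 at day 12, with an adjusted p of 2.4e-08 (edgeR's quasi-likelihood test). iPS cells gave -2.49 ± 0.44, with an adjusted p of 2.7e-05 by the same test. At day 3 Tbx4 was not called (-0.68 ± 0.42, adjusted p 0.19), but it was without MEF replicate 2 (-1.10, adjusted p 0.044).

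Tbx5 had the largest fitted decrease of the 9 members at day 12. It was at 20.3, 14.5 and 11.4 CPM in MEFs, at 4.34, 9.55 and 6.34 CPM in SSEA1+ cells of day 3, at 0.448, 2.56 and 1.11 CPM at day 6, at 0.124, 0.573 and 0 CPM at day 9, at 0.0364, 0.085 and 0.187 CPM at day 12 and at 1.43, 0.334 and 1.36 CPM at the iPS stage. All SSEA1+ libraries of every stage lay below all MEF libraries. The day 12 values rest on 1, 2 and 4 reads, and the 0 reads of day 9 replicate 3 allow up to 0.144 CPM. Pooled over libraries, day 12 SSEA1+ cells had 7 reads and MEFs 587, a ratio of 0.00579 with a 95% exact interval of 0.00232 to 0.012 that covers counting error only. The fitted log2 fold change against MEFs was -3.49 ± 0.72 (SE) at day 6 and -7.21 ± 0.91 at day 12, with adjusted p of 0.0003 and 3.1e-07 by edgeR's quasi-likelihood test. At day 3 it was -1.20 ± 0.66, with an adjusted p of 0.14.

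The ratio of Tbx4 to Tbx5 was not constant. It was 1.41, 0.769 and 2.32 in MEFs, and 28, 12.5 and 3.75 in day 12 SSEA1+ cells, where Tbx5 had only a few reads. In SSEA1- cells of day 12 the ratio was 4.09, 2.28 and 2.76. The 3 SSEA1+ ratios of day 12 lay above those of MEFs, and the SSEA1- ratios overlapped with them.

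In SSEA1- cells both genes were higher than in SSEA1+ cells from day 6 to day 12. Tbx4 was at 17.3, 13 and 14.9 CPM at day 3, at 12.9, 10.6 and 6.84 CPM at day 12 and at 5.08, 6.11 and 3.05 CPM at the iPS stage. Tbx5 was at 7.3, 11.2 and 7.65 CPM at day 3, at 3.16, 4.64 and 2.48 CPM at day 12 and at 2.2, 4.45 and 2.31 CPM at the iPS stage. Both were called lower than in MEFs from day 12. For Tbx4 at day 12 the log2 fold change was -1.12 ± 0.42 (SE, adjusted p 0.034 by edgeR's quasi-likelihood test). It was -0.99 with an adjusted p of 0.082 without the filter on low counts, and the adjusted p was 0.073 to 0.14 without MEF replicate 1 or 3 or day 12 SSEA1- replicate 2 or 3. For Tbx5 at day 12 it was -2.17 ± 0.68 (adjusted p 0.013), and -1.98 with an adjusted p of 0.053 without day 12 SSEA1- replicate 3. At the iPS stage the log2 fold change against MEFs was -2.22 ± 0.44 for Tbx4 (adjusted p 0.00033) and -2.37 ± 0.68 for Tbx5 (adjusted p 0.008), again by edgeR's quasi-likelihood test. At day 9 Tbx5 was not called (-1.56 ± 0.66, adjusted p 0.063), but it was without day 9 SSEA1- replicate 2 (-2.20, adjusted p 0.029). DESeq2's Wald test also called it at day 9 (-1.61, adjusted p 0.028). So did edgeR with the replicate number in the fit (adjusted p 0.013), with GC trends removed (0.035) and with the compared groups alone (0.034). At day 6 Tbx5 was called with the replicate number in the fit (-1.44, adjusted p 0.035) and with the compared groups alone (-1.29, adjusted p 0.039).

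Pitx1, the hindlimb homeobox gene that acts upstream of Tbx4 in the mouse, was the only member called lower than MEFs in SSEA1- cells at every stage. It was at 23.8, 8 and 27.1 CPM in MEFs. In SSEA1- cells it was at 0.811, 2.64 and 3.56 CPM at day 3, 1.24, 3.4 and 2.81 CPM at day 6, 0.968, 3.68 and 0.881 CPM at day 9, 0.676, 0.581 and 2.67 CPM at day 12 and 1.17, 0.536 and 1.42 CPM at the iPS stage. All 15 of these libraries lay below the lowest MEF library, as did those of Tbx5. Against MEFs the log2 fold change was -3.06 ± 0.71 (SE) at day 3 and -4.22 ± 0.75 at the iPS stage, with adjusted p of 0.001 and 0.00013 by edgeR's quasi-likelihood test. With the replicate block and GC trends removed together it was -1.69 at day 3, -1.86 at day 6 and -2.37 at day 9, where the values without those steps were -3.06, -2.98 and -3.39, and the calls held under each of 14 alternatives. Without day 9 SSEA1- replicate 2 it was -4.35 at day 9, and without day 12 SSEA1- replicate 3 it was -4.95 at day 12, where all libraries gave -3.91.

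In SSEA1+ cells Pitx1 came down in steps. It was at 13.9, 6.63 and 10.1 CPM at day 3, 6.88, 4.22 and 6.65 CPM at day 6, 2.61, 1.68 and 1.53 CPM at day 9, 0.182, 0.17 and 0.7 CPM at day 12 and 2.55, 0.78 and 2.62 CPM at the iPS stage. The day 3 libraries overlapped with MEFs (log2 fold change -0.94 ± 0.66, adjusted p 0.25 by edgeR's quasi-likelihood test), and those of all later stages did not. At day 6 the log2 fold change was -1.73 ± 0.67 with an adjusted p of 0.036, and the adjusted p was 0.061 to 0.11 without MEF replicate 1 or 3 or any 1 of the 3 day 6 SSEA1+ libraries. At day 12 it was -5.81 ± 0.83 with an adjusted p of 1.7e-06. Of the annotated exon bases of Pitx1, 6.212% are shared with Gm47071 on the opposite strand and 4.066% with Gm28760 on the same strand, so a small part of its reads cannot be told apart from theirs. Neither Gm47071 nor Gm28760 is among the counted gene IDs.

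Tbx15 and Tbx18, the mesenchymal T-box genes, had similar profiles, and both fell in SSEA1+ cells from day 9 to day 12 and again from day 12 to the iPS stage. Tbx15 was at 189, 150 and 157 CPM in MEFs, at 102, 92.2 and 84.8 CPM in SSEA1+ cells of day 3, at 94.8, 106 and 93.9 CPM at day 6, at 89.9, 79.2 and 43.4 CPM at day 9, at 3.49, 10.7 and 15.6 CPM at day 12 and at 2.28, 1.06 and 1.15 CPM at the iPS stage. The SSEA1+ libraries of every stage lay below all MEF libraries, and those of days 9 and 12 did not overlap, nor did those of day 12 and the iPS stage. The log2 fold change of Tbx15 was -2.84 ± 0.38 (SE) between day 9 and day 12 and -2.71 ± 0.41 between day 12 and the iPS stage, with adjusted p of 9.2e-05 and 8.5e-05 by edgeR's quasi-likelihood test. At day 9 against MEFs it was -1.22 ± 0.36, with an adjusted p of 0.0057. In the iPS stage against MEFs it was -6.78 ± 0.47, with an adjusted p of 1.5e-11. At day 3 the log2 fold change against MEFs was -0.83 ± 0.36 (adjusted p 0.057). With DESeq2 size factors it was -1.02 (adjusted p 0.022), and without MEF replicate 2 the adjusted p was 0.049.

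Tbx18 was at 32, 55 and 45.6 CPM in MEFs, at 39.2, 32.8 and 28.8 CPM in SSEA1+ cells of day 3, at 32.7, 51.4 and 46.9 CPM at day 6, at 29.2, 37.6 and 17.1 CPM at day 9, at 2.15, 6.08 and 8.82 CPM at day 12 and at 1.33, 2.45 and 0.944 CPM at the iPS stage. Up to day 9 the SSEA1+ libraries overlapped with MEFs, and the log2 fold change of day 6 was -0.02 ± 0.39 (SE). Between day 9 and day 12 it was -2.31 ± 0.42 and between day 12 and the iPS stage -1.85 ± 0.45, with adjusted p of 0.001 and 0.0065 by edgeR's quasi-likelihood test. At the iPS stage against MEFs it was -4.81 ± 0.48, with an adjusted p of 4.4e-09. Of its exon bases, 20.56% are shared with D030062O11Rik on the opposite strand, and reads there cannot be told apart without strand. D030062O11Rik is not among the counted gene IDs.

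In SSEA1- cells Tbx15 and Tbx18 were not called against MEFs through day 12. Tbx15 averaged 161 ± 15.2 CPM at day 6 and 119 ± 16.6 CPM at day 12, against 165 ± 20.9 CPM in MEFs (SD, n = 3 each). Tbx18 averaged 69.8 ± 3.85 CPM at day 6 and 49.1 ± 11.2 CPM at day 12, against 44.2 ± 11.6 CPM in MEFs. Tbx15 was lower in iPS SSEA1- cells, at 57, 109 and 44.1 CPM, than in MEFs (log2 fold change -1.24 ± 0.36, adjusted p 0.0082 by edgeR's quasi-likelihood test). Without iPS SSEA1- replicate 3 it was -0.98 with an adjusted p of 0.054. Fibroblast markers stood lower, at a summed 7335 ± 2510 CPM in SSEA1- cells of day 6, which is 7.94% of MEFs, when Tbx15 was at 97.2% and Tbx18 at 158% of the MEF mean. Of the 12 markers 9 were called lower there (12.4% of all genes). The sum does not measure the share of fibroblasts, and its relation to the 2 genes was not tested.

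Tbx2, a T-box repressor, was the one member called higher than in MEFs at any stage. It was at 19.7, 5.49 and 8.07 CPM in MEFs, at 35.8, 29.1 and 26.5 CPM in SSEA1+ cells of day 3, at 60.4, 42.7 and 25.8 CPM at day 6, at 55.3, 25.1 and 19.6 CPM at day 9, at 3.13, 15 and 11.9 CPM at day 12 and at 2.87, 3.06 and 1.31 CPM at the iPS stage. All day 3 and day 6 SSEA1+ libraries lay above MEFs, those of day 9 and day 12 overlapped with MEFs and those of the iPS stage lay below. Relative to MEFs the log2 fold change was 1.44 ± 0.47 (SE) at day 3, 1.94 ± 0.48 at day 6 and 1.57 ± 0.48 at day 9, with adjusted p of 0.014, 0.0017 and 0.0073 by edgeR's quasi-likelihood test. iPS cells gave -2.21 ± 0.50, with an adjusted p of 0.00046.

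The rise of Tbx2 at day 6 kept its call without each library in turn. At day 3 the adjusted p was 0.12 without MEF replicate 2, 0.088 without MEF replicate 3 and 0.062 without day 3 SSEA1+ replicate 1. At day 9 it was 0.06 without MEF replicate 2 and 0.093 without day 9 SSEA1+ replicate 1. In SSEA1- cells Tbx2 was at 6.48, 7.44 and 8.48 CPM at day 3 and at 17.7, 17.4 and 21 CPM at day 6, and it was not called against MEFs at any stage. Its log2 fold change there was 1.06 ± 0.47 at day 12 (adjusted p 0.072 by edgeR's quasi-likelihood test), 1.74 (adjusted p 0.011) without MEF replicate 1, 1.33 (adjusted p 0.045) without day 12 SSEA1- replicate 2 and 1.68 (adjusted p 0.014) with GC trends removed. Tbx2 was also called higher there without MEF replicate 1 at day 6 (1.37, adjusted p 0.038) and day 9 (1.64, adjusted p 0.016). Removal of GC trends gave 1.58 (adjusted p 0.021) at day 6 and 1.78 (adjusted p 0.011) at day 9.

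Meis1 and Meis2, TALE factors of the proximal limb, were not called against MEFs at days 6 and 9 in SSEA1+ cells, and both were lowest at the iPS stage. Meis1 was at 45.2, 31.3 and 36 CPM in MEFs, at 11.1, 15.2 and 23.9 CPM in SSEA1+ cells of day 3, at 49.1, 38.8 and 58.9 CPM at day 6, at 49, 43.7 and 59.1 CPM at day 9, at 14.2, 25.7 and 35.6 CPM at day 12 and at 2.71, 1.89 and 0.839 CPM at the iPS stage. The day 3 libraries lay below MEFs, those of days 6, 9 and 12 overlapped with MEFs, and the iPS libraries lay below all others. Relative to MEFs the log2 fold change was -1.17 ± 0.38 (SE) at day 3 (adjusted p 0.014 by edgeR's quasi-likelihood test), and the adjusted p was 0.065 without day 3 SSEA1+ replicate 1. iPS cells gave -4.37 ± 0.45, with an adjusted p of 6.6e-09. Between day 12 and the iPS stage alone it was -3.79 ± 0.44, with an adjusted p of 2.2e-06, and this was the member's change of smallest p between any successive stages. Of its annotated exon bases, 9.77% are shared with Gm37818 on the same strand and 8.507% with Gm16140 on the opposite strand, and Gm16140 had 0 to 3 reads per library. Gm37818 is not among the counted gene IDs.

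Meis2 was at 83.1, 47.5 and 61.2 CPM in MEFs and at 33.5, 35.2 and 61.3 CPM in SSEA1+ cells of day 3. It was at 52.9, 89.4 and 136 CPM at day 6, 39.3, 79.7 and 79.2 CPM at day 9, 24.8, 21.9 and 36.9 CPM at day 12 and 8.92, 8.25 and 14.8 CPM at the iPS stage. The day 12 and iPS libraries lay below MEFs, and those of the earlier stages overlapped with them. At day 12 the log2 fold change against MEFs was -1.20 ± 0.39 (SE, adjusted p 0.011 by edgeR's quasi-likelihood test), and -1.02 with an adjusted p of 0.052 without MEF replicate 1. iPS cells gave -2.59 ± 0.41, with an adjusted p of 6.8e-06. In SSEA1- cells neither Meis gene was called against MEFs at any stage. Meis1 was at 57.9, 32 and 17.1 CPM and Meis2 at 111, 54.1 and 34.7 CPM in iPS SSEA1- cells, where the lowest value of both genes is replicate 3.

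Pbx3, a TALE cofactor of Meis and Hox proteins, had the smallest ratio between its highest and lowest group means, which were 189% and 44.2% of the MEF mean. It was at 44.2, 34.7 and 40.5 CPM in MEFs, averaged 51.2 ± 4.22, 59.1 ± 9.1, 60 ± 9.04 and 33 ± 12 CPM in SSEA1+ cells of days 3, 6, 9 and 12 (SD, n = 3 each), and was at 12.5, 18.7 and 21.7 CPM at the iPS stage. Only the iPS stage was called against MEFs (log2 fold change -1.18 ± 0.21, SE, adjusted p 3.4e-05 by edgeR's quasi-likelihood test). In SSEA1- cells Pbx3 stood above MEFs from day 3 to day 12 without reaching 2-fold, and at the iPS stage it overlapped with MEFs (0.27 ± 0.21, adjusted p 0.32). At day 6 it was at 70.9, 73.4 and 80.5 CPM, all above MEFs, with a log2 fold change of 0.91 ± 0.21 and an adjusted p of 0.0012.

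On the scale of CPM per kilobase of annotated exon, Tbx15 was the most abundant member in MEFs, at 44.1. Tbx18 followed at 9.38, Pitx1 at 7.39, Pbx3 at 6.51, Tbx4 at 6.48, Meis2 at 5.31, Meis1 at 3.56, Tbx5 at 3.29 and Tbx2 at 3.06. Neighbours in this order overlapped between libraries, except that all MEF libraries of Tbx15 lay above those of the other members. In iPS SSEA1+ cells Pbx3 led at 2.88 per kilobase, followed by Tbx4 at 1.16, Meis2 at 0.885, Pitx1 at 0.747, Tbx2 at 0.666, Tbx15 at 0.4, Tbx18 at 0.334, Tbx5 at 0.223 and Meis1 at 0.172. There only Pbx3 stood clear of its neighbour.

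The sort compares cells that carry SSEA1 with cells of the same stage that do not. At day 3 the SSEA1+ fraction had 2 members higher and 0 lower (6.67% of all genes called, 2.76% higher and 3.91% lower). At later stages it had 0 higher. There were 2 lower at day 6 (16.4% of all genes called, 6.31% higher and 10.1% lower) and 4 at day 9 (25.2%, with 11.5% higher and 13.7% lower). There were 6 lower at day 12 (35.9%, with 18% higher and 18% lower) and 6 at the iPS stage (37.4%, with 16% higher and 21.3% lower). The median log2 fold change of the members between the fractions was -1.90 at day 12 and -1.93 at the iPS stage, beside 0.06 at both over all genes. Fibroblast markers called lower in SSEA1+ cells numbered 4 of 12 at day 3, 11 at day 6 and 12 from day 9 on, and their part in the members' differences was not tested.

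The 2 members higher in SSEA1+ cells of day 3 were Tbx2 and Pitx1. Tbx2 was at 35.8, 29.1 and 26.5 CPM in SSEA1+ cells, against 6.48, 7.44 and 8.48 CPM in SSEA1- cells, and Pitx1 was at 13.9, 6.63 and 10.1 CPM in SSEA1+ cells, against 0.811, 2.64 and 3.56 CPM in SSEA1- cells. The fractions did not overlap for either gene. Log2 fold changes of SSEA1+ over SSEA1- cells were 2.03 ± 0.48 (SE) for Tbx2 and 2.12 ± 0.68 for Pitx1, with adjusted p of 0.0074 and 0.042 by edgeR's quasi-likelihood test. These are the members with the highest exon GC content, at 63.24% and 65.81%, and with each library's GC trend removed neither was called, at 1.24 (adjusted p 0.14) for Tbx2 and 1.28 (adjusted p 0.1) for Pitx1. Pitx1 was also not called without the filter on low counts (adjusted p 0.064), nor without day 3 SSEA1- replicate 1, 2 or 3 or SSEA1+ replicate 1 or 3 (adjusted p 0.055 to 0.15), which leaves 1 member called.

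At day 6 the lower members in SSEA1+ cells were Tbx4 and Tbx5, with log2 fold changes of -1.45 ± 0.42 and -2.22 ± 0.69 (SE) and adjusted p of 0.013 and 0.019 by edgeR's quasi-likelihood test. The fractions did not overlap for either. Tbx4 had an adjusted p of 0.06 without day 6 SSEA1+ replicate 2 and 0.062 without replicate 3, and Tbx5 had 0.11 without SSEA1- replicate 2, 0.09 without SSEA1+ replicate 1, 0.076 without SSEA1+ replicate 3 and 0.055 in a fit of the compared groups alone. Leaving out each of these 4 libraries gave a count of 1, which without SSEA1+ replicate 3 was Tbx2, higher in SSEA1+ cells (1.46, adjusted p 0.041). With all libraries Tbx2 was not called (1.20 ± 0.47, adjusted p 0.056). It was called higher in a fit of the compared groups alone (1.18, adjusted p 0.029) and by DESeq2's Wald test (1.16, adjusted p 0.043). The replicate block and removal of GC trends did not call it.

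At day 9 Tbx15 and Tbx18 joined them. Tbx4 was at 2.86, 2.42 and 0.718 CPM in SSEA1+ cells, against 15, 18.9 and 8.01 CPM in SSEA1- cells (log2 fold change -2.80 ± 0.45, SE, adjusted p 4.4e-05 by edgeR's quasi-likelihood test). Tbx5 was at 0.124, 0.573 and 0 CPM in SSEA1+ cells, against 3.9, 9.11 and 2.57 CPM in SSEA1- cells (-4.42 ± 0.80, adjusted p 0.00014). Tbx15 was at 89.9, 79.2 and 43.4 CPM in SSEA1+ cells, against 149, 193 and 116 CPM in SSEA1- cells (-1.11 ± 0.36, adjusted p 0.016). None of the 4 genes overlapped between the fractions, which was not counted over all genes. Tbx15 lost its call without SSEA1- replicate 2 (adjusted p 0.076), and without SSEA1+ replicate 3 both Tbx15 (0.092) and Tbx18 (0.07) did, leaving 2 members called.

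At day 12 all 5 T-box members and Pitx1 were lower in SSEA1+ cells. Tbx15 was at 3.49, 10.7 and 15.6 CPM, against 115, 137 and 105 CPM in SSEA1- cells, and Tbx18 was at 2.15, 6.08 and 8.82 CPM, against 58.4, 52.3 and 36.7 CPM in SSEA1- cells. The fractions lay far apart for both, as they did for Tbx4 and Tbx5. Log2 fold changes were -3.59 ± 0.39 (SE) for Tbx15, -3.12 ± 0.43 for Tbx18, -3.44 ± 0.47 for Tbx4 and -5.04 ± 0.87 for Tbx5, with adjusted p of 2.1e-07, 3.4e-06, 3.3e-06 and 4.3e-05 by edgeR's quasi-likelihood test. Tbx2 (-1.23 ± 0.47, adjusted p 0.031) and Pitx1 (-1.90 ± 0.75, adjusted p 0.037) overlapped between the fractions. Tbx2 had an adjusted p of 0.11, 0.068 and 0.16 without SSEA1- replicate 1, SSEA1- replicate 3 and SSEA1+ replicate 1, and Pitx1 had 0.37, 0.14 and 0.12 without SSEA1- replicate 3, SSEA1+ replicate 1 and SSEA1+ replicate 2. Without SSEA1- replicate 3 the log2 fold change of Pitx1 was -0.86. In a fit of the 2 groups alone neither Tbx2 (adjusted p 0.078) nor Pitx1 (adjusted p 0.074) was called. Pbx3 was lower by less than 2-fold (-0.90 ± 0.21, adjusted p 0.00093), and by -1.23 (adjusted p 5.6e-05) without SSEA1+ replicate 3.

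At the iPS stage the lower members were Tbx2, Tbx15, Tbx18, Meis1, Meis2 and Pbx3. Tbx15 was at 2.28, 1.06 and 1.15 CPM in SSEA1+ cells, against 57, 109 and 44.1 CPM in SSEA1- cells (log2 fold change -5.54 ± 0.45, SE, adjusted p 7.5e-10 by edgeR's quasi-likelihood test). Meis1 was at 2.71, 1.89 and 0.839 CPM in SSEA1+ cells, against 57.9, 32 and 17.1 CPM in SSEA1- cells (-4.30 ± 0.44, adjusted p 2.8e-08). The 6 genes did not overlap between the fractions, which was not counted over all genes. Without iPS SSEA1- replicate 3, 6 were called. Tbx4 was not called, at 6.21, 3.01 and 2.57 CPM in SSEA1+ cells, against 5.08, 6.11 and 3.05 CPM in SSEA1- cells (-0.27 ± 0.43). Tbx5 had a log2 fold change of -1.50 ± 0.69 (adjusted p 0.07) and Pitx1 of 0.92 ± 0.69 (adjusted p 0.27).

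**Figure D3:**
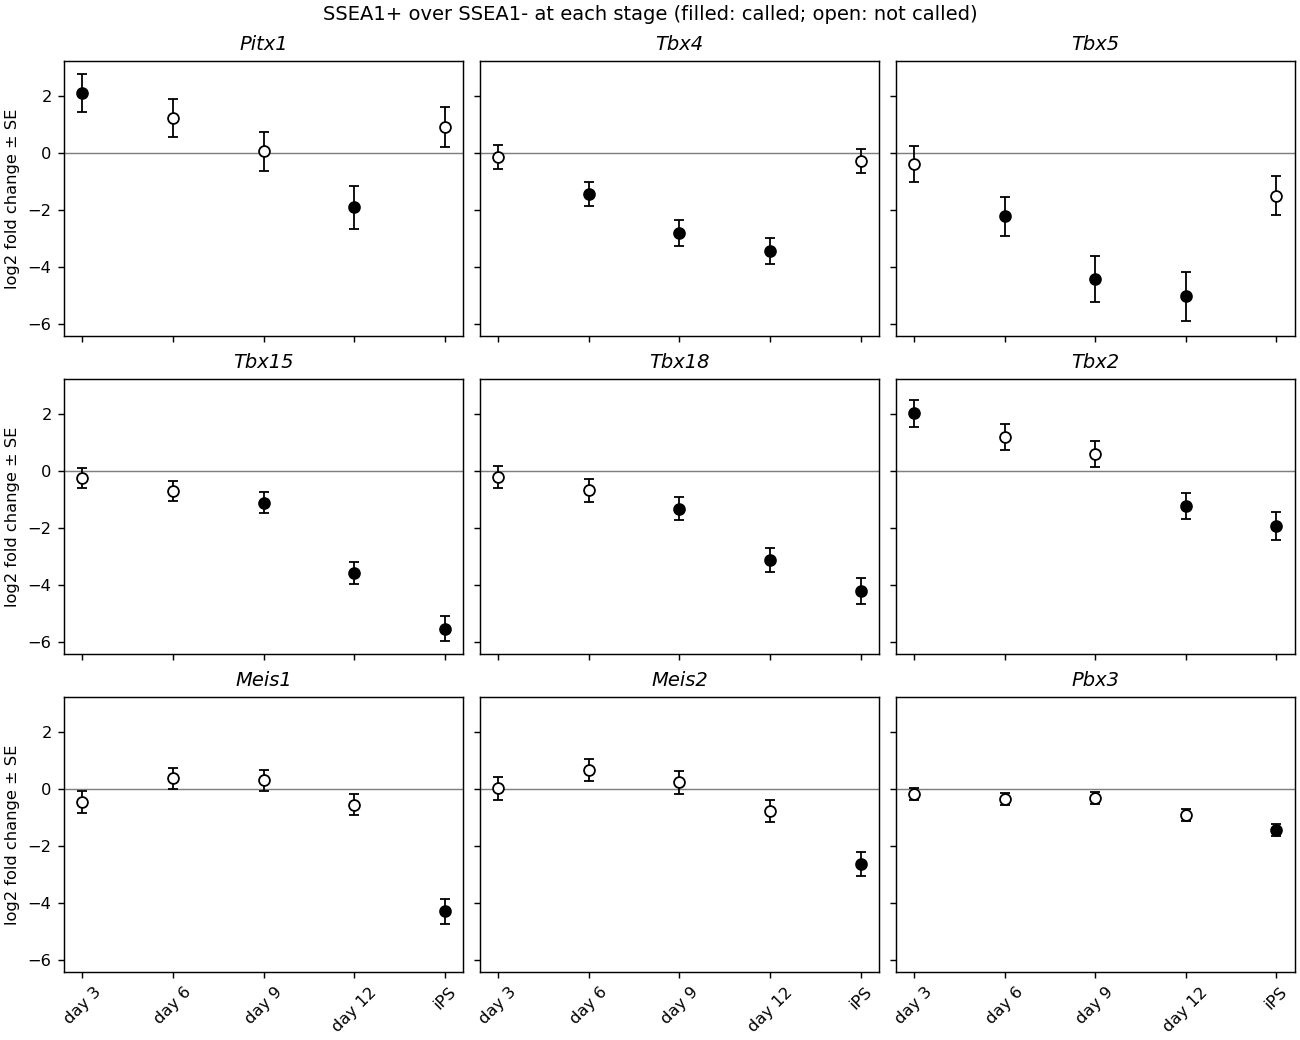
The log2 fold change of SSEA1+ over SSEA1- cells with its standard error at each stage for the 9 tested members, with filled points called and open points not called. The difference of Tbx4 and Tbx5 is deepest at day 12, at -3.44 and -5.04, and smaller at the iPS stage, whereas that of Meis1 is -0.55 at day 12 and -4.30 at the iPS stage.

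The change of the sort difference between stages was tested directly. Between day 3 and day 12 it moved down for 6 members and up for 0 (14.1% of all genes called, 6.21% up and 7.93% down), namely the 5 T-box genes and Pitx1. The difference of the log2 fold changes ran between -2.92 ± 0.57 (SE) for Tbx18 and -4.67 ± 1.07 for Tbx5, with adjusted p of 0.00027 to 0.0085 by edgeR's quasi-likelihood test. For Meis1 it was -0.10 ± 0.53, for Meis2 -0.80 ± 0.55 and for Pbx3 -0.72 ± 0.29. Between day 12 and the iPS stage it moved up for Tbx4 (3.17 ± 0.62, adjusted p 0.008) and down for Meis1 (-3.74 ± 0.56, adjusted p 0.00072), with 1.85% of all genes called, 0.41% up and 1.44% down. In a fit of the 4 groups alone both had an adjusted p of 0.096. Without iPS SSEA1- replicate 3, Tbx15 (-2.17, adjusted p 0.024) and Meis2 (-2.11, adjusted p 0.026) were called as well, 4 members in all.

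Between successive stages of the SSEA1+ cells, 1 member rose at day 6 against day 3 (4.46% of all genes called, 3.21% higher and 1.25% lower), which was Meis1 (log2 fold change 1.55 ± 0.38, SE, adjusted p 0.017 by edgeR's quasi-likelihood test). With the replicate block, whose numbers paired in this comparison, Tbx5 was lower as well (-2.39, adjusted p 0.012). Meis1 had an adjusted p of 0.052 in a fit of the 2 groups alone, and 0.12, 0.073 and 0.098 without day 3 SSEA1+ replicate 1, day 3 SSEA1+ replicate 2 and day 6 SSEA1+ replicate 3, which left 0 members called. Without day 6 SSEA1+ replicate 1 or 2, 2 members were called, Meis2 joining in one case (1.44, adjusted p 0.034) and Tbx5 in the other (-3.12, adjusted p 0.037). From day 6 to day 9, 0 members were called by edgeR (1.08% of all genes, 0.998% higher and 0.0808% lower), 3 had an unadjusted p under 0.05 and DESeq2 called 2. Over all genes, 1582 had an unadjusted p under 0.05 and DESeq2 called 390. With the replicate block Tbx4 was lower in that step (-1.72, adjusted p 0.016), and without day 9 SSEA1+ replicate 2 Tbx5 was (-4.30, adjusted p 0.024).

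From day 9 to day 12, 5 members fell in SSEA1+ cells and 0 rose (8.82% of all genes called, 5.37% higher and 3.45% lower). Tbx15 and Tbx18, described above, kept their calls without each library in turn. Log2 fold changes were -1.74 ± 0.47 (SE) for Tbx2, -2.48 ± 0.75 for Pitx1 and -1.25 ± 0.39 for Meis2, with adjusted p of 0.018, 0.032 and 0.039 by edgeR's quasi-likelihood test. The libraries of the 2 days did not overlap for these genes, which was not counted over all genes. Without single libraries of days 9 and 12 their adjusted p reached 0.11 to 0.15 for Tbx2, 0.064 to 0.17 for Pitx1 and 0.11 to 0.16 for Meis2. The count of members called was 3 without day 9 SSEA1+ replicate 1 or 2 or day 12 SSEA1+ replicate 2, 2 without day 12 SSEA1+ replicate 1, and 3 in a fit of the 2 groups alone. Day 12 SSEA1+ replicate 1 had the lowest value of the 3 libraries for Tbx2, Tbx15, Tbx18, Meis1 and Pbx3.

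In the last step the members parted. From day 12 to the iPS stage in SSEA1+ cells, 3 rose and 5 fell (9.49% of all genes called, 3.74% higher and 5.75% lower). The risers were the limb-identity genes Tbx4, Tbx5 and Pitx1, and the genes that fell were Tbx2, Tbx15, Tbx18, Meis1 and Meis2. Tbx4 was at 6.21, 3.01 and 2.57 CPM in iPS cells, against 1.02, 1.06 and 0.7 CPM at day 12. Tbx5 was at 1.43, 0.334 and 1.36 CPM in iPS cells, against 0.0364, 0.085 and 0.187 CPM at day 12. Pitx1 was at 2.55, 0.78 and 2.62 CPM in iPS cells, against 0.182, 0.17 and 0.7 CPM at day 12. The libraries did not overlap for any of the 3 genes, which was not counted over all genes, and all 3 stayed below MEFs.

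The log2 fold change of this step was 2.07 ± 0.46 (SE) for Tbx4, 3.34 ± 0.87 for Tbx5 and 2.51 ± 0.76 for Pitx1, with adjusted p of 0.0032, 0.011 and 0.027 by edgeR's quasi-likelihood test. Tbx4 kept its call without each library in turn. For Tbx5 the pooled counts were 59 reads in iPS SSEA1+ cells and 7 in day 12 SSEA1+ cells, a ratio of 10.9 with a 95% exact interval of 4.99 to 28.4 that covers counting error only and not the spread between libraries. Without day 12 SSEA1+ replicate 1 or 2 its adjusted p was 0.05 (just above the threshold before rounding) and 0.052. In a fit of the 2 groups alone Tbx5 did not pass the filter on low counts. Its test here thus depends on a filter over all 11 groups. Pitx1 had an adjusted p of 0.07 to 0.12 without day 12 SSEA1+ replicate 1 or 2 or iPS SSEA1+ replicate 1 or 3, and 0.064 in a fit of the 2 groups alone.

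Fibroblast markers did not rise in the same step. Their summed level was 179.9 ± 117 CPM in iPS SSEA1+ cells, against 281.8 ± 71 CPM at day 12 (SD, n = 3 each). Of the 12 genes 0 were called higher and 2 lower, beside 3.74% and 5.75% of all genes. The 8 cardiac and epicardial markers, tissues in which Tbx5 and Tbx18 also act, summed to 14.5 to 21.7 CPM in iPS SSEA1+ cells, against 7.31 to 8.16 CPM at day 12. The 6 endothelial markers summed to 153 to 209 CPM in iPS SSEA1+ cells, against 85.1 to 86.5 CPM at day 12, but their median log2 fold change was -1.04. Only Pecam1, which pluripotent cells also make, was called, at 156, 138 and 181 CPM in iPS SSEA1+ cells, against 63.8, 38.9 and 28.1 CPM at day 12. The part of these other cell types in the members' rise was not tested.

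Of the members that fell in the last step, Meis1 had the largest change, given above. Log2 fold changes were -2.71 ± 0.41 (SE) for Tbx15, -1.85 ± 0.45 for Tbx18, -2.05 ± 0.50 for Tbx2 and -1.39 ± 0.40 for Meis2, with adjusted p of 8.5e-05, 0.0065, 0.0068 and 0.021 by edgeR's quasi-likelihood test. Tbx18 alone overlapped between the 2 stages. Tbx18 had an adjusted p of 0.073 without day 12 SSEA1+ replicate 3 and 0.052 without iPS SSEA1+ replicate 3. Meis2 had 0.12, 0.074 and 0.093 without day 12 SSEA1+ replicate 3, iPS SSEA1+ replicate 1 and iPS SSEA1+ replicate 2. In a fit of the 2 groups alone Tbx2 (0.066) and Tbx18 (0.088) were not called. Tbx5 was not tested there, since it did not pass the filter on low counts. That fit called 4 members.

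**Figure D4:**
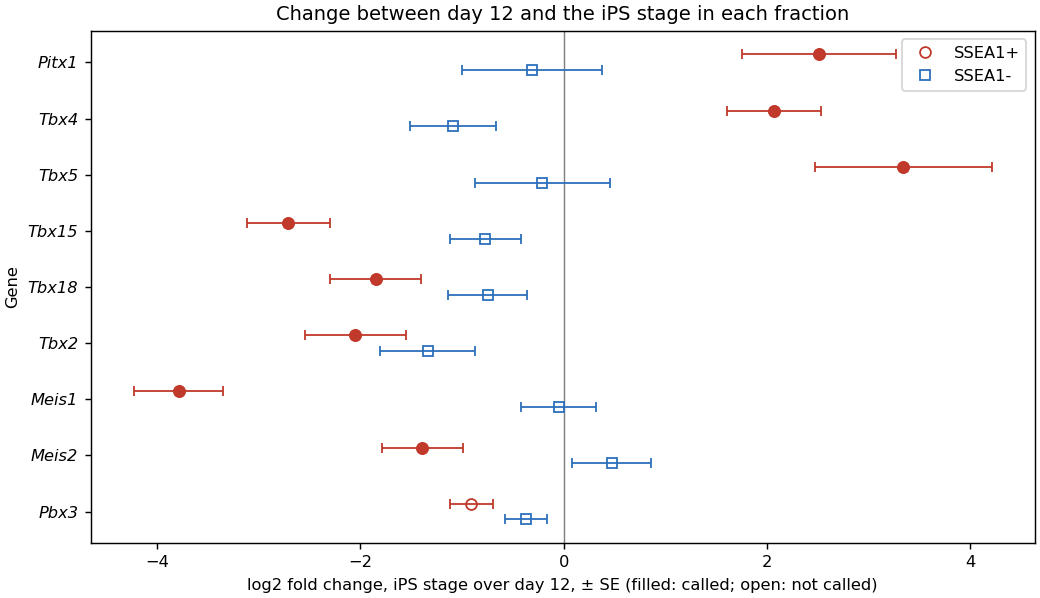
The log2 fold change of the iPS stage over day 12 with its standard error in SSEA1+ cells (circles) and SSEA1- cells (squares), with filled points called and open points not called. In SSEA1+ cells Tbx4, Tbx5 and Pitx1 lie right of 0 and the other members left of it, between 3.34 for Tbx5 and -3.79 for Meis1, and no point of the SSEA1- cells is filled.

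Between successive stages of the SSEA1- cells edgeR called 0 members in every step. From day 3 to day 6 (5.88% of all genes called, 4.65% higher and 1.24% lower), 2 members had an unadjusted p under 0.05 and DESeq2 called 1, Tbx2. Over all genes these counts were 4658 and 1468. With the replicate block, whose numbers paired there, Tbx2 was higher at day 6 (log2 fold change 1.31, adjusted p 0.049). From day 6 to day 9, edgeR called 0% of all genes, 474 had an unadjusted p under 0.05 and DESeq2 called 7. From day 9 to day 12 these were 0.0693%, 544 and 55. In both steps 0 members had an unadjusted p under 0.05 and DESeq2 called 0 members. From day 12 to the iPS stage (7.21%, with 4.72% higher and 2.5% lower), 3 members had an unadjusted p under 0.05, DESeq2 called 1, again Tbx2, and without iPS SSEA1- replicate 2 edgeR called 1, Tbx15 (-1.31, adjusted p 0.031). Over all genes, 4045 had an unadjusted p under 0.05 and DESeq2 called 1533. Tbx4, Tbx5 and Pitx1 had log2 fold changes of -1.09 ± 0.42, -0.21 ± 0.66 and -0.31 ± 0.69 (SE) in that last step.

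Shox2, a homeobox gene of the proximal limb in the mouse, had 0 reads in each of the 33 libraries, which allows up to 3 reads per library. It is 1 of 10087 gene IDs with 0 reads in all libraries. In the annotation, 4.621% of its exon bases are shared with Rsrc1 on the opposite strand, and Rsrc1 had 324 to 2636 reads per library. Whether Shox2 transcripts were absent or were not counted was not tested.

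Likeness between members was described over the 11 group means of log2(CPM + 1), which share libraries and depth. Tbx15 and Tbx18 had a Pearson r of 0.99, Tbx4 and Tbx5 of 0.95, and Meis1 and Meis2 of 0.94. Pitx1 had 0.58 with Tbx4 and 0.59 with Tbx5, and Tbx2 had 0.17 with Tbx4 and 0.00 with Tbx5. Meis1 had 0.17 with Tbx4 and 0.14 with Tbx5. Among all tested genes of at least 5 CPM in a group, the most similar to Tbx15 were Parva, Hoxa10 and Col15a1 (r of 0.992, 0.992 and 0.991). Those most similar to Tbx18 were Adck2, Tmem173 and Arhgef25 (0.991, 0.989 and 0.989), and to Tbx5 Pcdh19, Wdr47 and Snx25 (0.985, 0.970 and 0.969). For Tbx4 they were Plekhh2, Zdhhc14 and Tbx5 (0.956, 0.956 and 0.947), for Pitx1 Palm, Pdzd8 and Cep350 (0.951, 0.948 and 0.948) and for Tbx2 Usp20, St6gal1 and Hipk1 (0.974, 0.969 and 0.969). For Meis1 they were Rab38, Mcc and Zfp608 (0.975, 0.959 and 0.957), for Meis2 Foxd1, Kmt2e and Cdk14 (0.954, 0.954 and 0.948), and for Pbx3 Gstm5, Hmgn3 and Cpne2 (0.984, 0.977 and 0.969).

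Of 12 other T-box genes 8 were tested, and 6 were called higher and 0 lower in day 12 SSEA1+ cells than in MEFs, where 26.5% of all genes were higher and 20.2% lower. Tbx3, the closest relative of Tbx2 and a gene used by pluripotent cells, was at 167, 133 and 87.7 CPM in day 12 SSEA1+ cells and at 195, 167 and 337 CPM in iPS SSEA1+ cells, against 33.2, 25.4 and 28.9 CPM in MEFs. At day 6, when Tbx2 stood highest, Tbx3 was at 3.99, 5.45 and 4.96 CPM in SSEA1+ cells, below MEFs. The log2 fold change of Tbx3 against MEFs was 2.15 ± 0.56 (SE) at day 12 and 2.99 ± 0.57 at the iPS stage, with adjusted p of 0.0018 and 6.7e-05 by edgeR's quasi-likelihood test. Mga, a T-box factor that partners Max, rose too, by 1.20 ± 0.17 at day 12 and 1.76 ± 0.18 at the iPS stage.

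Of 15 other TALE genes tested, 4 were higher and 8 lower in iPS SSEA1+ cells than in MEFs, where 27.9% of all genes were higher and 22.5% lower. The share of these genes that was higher was near that of all genes. Meis3, a paralogue of Meis1, fell (log2 fold change -3.73 ± 0.45, SE, adjusted p 1.1e-07 by edgeR's quasi-likelihood test), and Pbx4 (4.24 ± 0.39, adjusted p 9.4e-10) and Tgif1 (1.34 ± 0.14, adjusted p 1.3e-08) rose. Of 10 other PITX and paired-type genes, 8 were tested, and 5 were higher and 0 lower at day 12 in SSEA1+ cells than in MEFs (26.5% and 20.2% of all genes). Otx2, a head-organising factor also made by pluripotent cells, was at 65.7, 48.7 and 40.1 CPM at day 12, against 0.116, 0 and 0 CPM in MEFs.

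Genes that act with the members in the limb bud were mostly lower in SSEA1+ cells. Of 26 limb bud genes, 24 were tested, and 3 were higher and 19 lower at day 12 than in MEFs (26.5% and 20.2% of all genes), with a median log2 fold change of -2.56. Prrx1, a homeobox gene of limb mesenchyme, changed by -6.84 ± 0.59 (SE), Grem1, a BMP antagonist, by -6.76 ± 0.69 and Lhx9, a LIM homeobox gene, by -7.58 ± 0.81, with adjusted p of 5.9e-10, 1e-08 and 1.9e-08 by edgeR's quasi-likelihood test. Already at day 3, 16 of the 24 were lower and 0 higher in SSEA1+ cells (16.7% and 15.6% of all genes), when the members had 1 in each direction. From day 12 to the iPS stage in SSEA1+ cells 0 of the 24 rose, which is near the 3.74% of all genes higher there. In that step 3 fell, Emx2, Gli3 and Prrx1, where 5.75% of all genes were lower.

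Hoxc genes, which mark position along the trunk and limb, were lower in 8 of 9 cases at day 12 in SSEA1+ cells than in MEFs (20.2% of all genes), and in 1 of 9 in SSEA1- cells, which is near the 11.1% of all genes lower there. Hoxc8 changed by -4.84 ± 0.58 (SE) in SSEA1+ cells of day 12 against MEFs (adjusted p 1.2e-07 by edgeR's quasi-likelihood test). Of 12 genes that make, bind or break down retinoic acid, a signal that induces Meis genes in the proximal limb of the mouse, 3 were higher and 8 lower at day 12 in SSEA1+ cells than in MEFs. The share higher was near the 26.5% of all genes, beside 20.2% of all genes lower. Cyp26b1, which degrades retinoic acid, changed by -5.43 ± 0.54 (adjusted p 5.8e-09) and the receptor gene Rarb by -3.57 ± 0.69 (adjusted p 8.5e-05). These lists are described by their counts, and nothing was tested for the lists as wholes.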

How the data were processed

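The authors deposited 1 file of raw counts per library, whole numbers of reads per Ensembl gene ID. Tools named in the submitters' processing notes, with no role or order, are HTSeq 0.6.0, STAR 2.3.0 and Picard 1.100, and the genome build is mm9. No source used here gives the annotation release. Per the labels' protocols the kit marks strand, but only file names speak of counting without strand, so antisense and overlapping genes cannot be told apart.

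The labels gave each library's group and replicate number. Symbols (32860 of 37583 IDs) came from a separate list of gene names. Exon lengths, GC content and overlaps came from GENCODE M21, which belongs to another build than mm9. The 5 closing lines of each file, which name no gene, were left out. Among uniquely aligned reads, 4.42 to 15.51% fell in no gene and 2.413 to 3.148% were ambiguous. All 33 libraries were fitted in 1 model with edgeR 4.0.16 in R 4.3.3 (TMM, filterByExpr, robust quasi-likelihood test, 22 residual degrees of freedom), which was tested on simulated data. Standard errors are the log2 fold change over the square root of F. Levels are TMM-normalised CPM.

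The members and lists were chosen with earlier results of these data known. The text names all members, up to 4 genes of smallest p per list and comparison described, the 3 genes most like each member and marker genes, other than some that are not reported here. Fibroblast, pluripotency, epithelial, macrophage, endothelial, cardiac, neural and blood marker lists were read as sums.

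The labels give no meaning to a shared replicate number, so pairing was judged from the libraries themselves. Deviations of same-numbered libraries from their group means correlated above 0.1 in every pair for the sort at days 3, 6, 9 and 12 (0.176 to 0.555), for SSEA1+ cells of days 3, 6 and 12 against MEFs (0.113 to 0.231) and for successive stages other than day 12 to iPS in SSEA1+ cells (0.103 to 0.796). Alternatives were DESeq2 1.42.0, DESeq2 size factors, no filter, a replicate block, removal of GC trends, a fit of the compared groups alone, each library left out and, chosen after seeing the data, library totals before the filter.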

Additional observations from a re-analysis of the deposited data

Results flagged for a closer look

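The difference between SSEA1+ and SSEA1- cells itself differed between stages for 7 members, by an interaction contrast in edgeR (quasi-likelihood test, adjusted over all tested genes). Between day 3 and day 12 it moved down for 6 members, with 14.1% of all genes called, 6.21% up and 7.93% down. From day 12 to the iPS stage it moved up for 1 and down for 1, with 1.85% of all genes called, 0.41% up and 1.44% down. Between day 3 and day 12, the log2 fold change of SSEA1+ over SSEA1- cells moved by -3.26 ± 0.67 (SE) for Tbx2, -3.31 ± 0.62 for Tbx4, -4.67 ± 1.07 for Tbx5, -3.34 ± 0.51 for Tbx15, -2.92 ± 0.57 for Tbx18 and -4.02 ± 1.01 for Pitx1. The adjusted p were 0.0023, 0.001, 0.0048, 0.00027, 0.0015 and 0.0085. Tbx2 and Pitx1 were higher in SSEA1+ cells at day 3 and lower at day 12, with log2 fold changes of -1.23 and -1.90 at day 12 against 2.03 and 2.12 at day 3. With GC trends removed neither gene was called at day 3 (adjusted p 0.14 and 0.1). In a fit of the compared groups alone neither was called at day 12 (adjusted p 0.078 and 0.074).

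Between day 12 and the iPS stage, the same difference moved by 3.17 ± 0.62 for Tbx4 (adjusted p 0.008) and by -3.74 ± 0.56 for Meis1 (adjusted p 0.00072). Neither was called in a fit of the compared groups alone, where both had an adjusted p of 0.096 by the same edgeR test. For Tbx4 it was -0.27 at the iPS stage, against -3.44 at day 12, and for Meis1 -4.30 at the iPS stage, against -0.55 at day 12.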

How the results depend on the processing

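Of 78 called results of single members, 51 kept their call under every alternative run and 27 lost it under at least 1, and all 78 kept their sign. DESeq2, DESeq2 size factors, the replicate block and unfiltered library totals kept all 78, removal of GC trends 76, no filter 75, and fits of the compared groups alone 66 of 77. The result missing there is Tbx5 from day 12 to iPS in SSEA1+ cells, which did not pass the filter in that fit. Leaving out 1 library kept 455 of 516 calls. DESeq2 size factors shifted log2 fold changes against MEFs by -0.02 to -0.19, the most at day 3 in SSEA1+ cells. Of 99 group means, 8 moved by over 1 SD with plain CPM and 2 with DESeq2 size factors.

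Members called changed by over 1.5 times as follows. For the sort at day 3 (2 called), the count was 1 without the filter, 0 with GC trends removed and 0 with the replicate block as well, with 1 to 2 leaving out a library; at day 6 (2) it was 1 to 2 and at day 9 (4) 2 to 4. For SSEA1+ cells of day 3 against MEFs (2) it was 0 to 3 leaving out a library. For SSEA1- cells against MEFs, GC removal gave 2, 2 and 3 at days 3, 6 and 9 (1 each), and with the block 2, 3 and 3. There the block alone gave 2 at days 6 and 9, the compared groups alone 2 at both, and DESeq2 2 at day 9, with 1 to 2 at both days leaving out a library, and at day 12 (3) 1 to 3. Over all genes the block called 5151 and 4921 at days 6 and 9, and DESeq2 4750 at day 9. In these comparisons the numbers did not pair the libraries.

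For SSEA1+ cells from day 3 to day 6 (1) the replicate block gave 2, GC removal 2, both 4, the compared groups alone 0, DESeq2 2 and leaving out a library 0 to 2. Over all genes the block called 1055 and DESeq2 1110. From day 6 to day 9 (0) the block gave 1, with GC removal 2, DESeq2 2, and leaving out a library 0 to 1. There the block called 279 of all genes and DESeq2 390. From day 9 to day 12 (5) the groups alone gave 3 and leaving out a library 2 to 7. From day 12 to iPS (8) the groups alone gave 4, with Tbx5 not tested. For SSEA1- cells from day 3 to day 6 (0) the block, the groups alone and DESeq2 gave 1 each. Over all genes the block called 1527 and DESeq2 1468. From day 12 to iPS (0) the block with GC removal gave 1, DESeq2 1 and leaving out a library 0 to 1. DESeq2 called 1533 of all genes there. For the change of the sort difference from day 12 to iPS (2), the block gave 5, with GC removal 6, the groups alone 0, DESeq2 5 and leaving out a library 2 to 4. Over all genes the block called 497 and DESeq2 645. Under the other alternatives the count over all genes is not given. The cause of the changes in members called was not tested. In the other comparisons with paired numbers the block changed no call. With Spearman correlation or single libraries the 3 genes most like a member shared 0 to 2 with those named.

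Few reads limit Tbx5 and Pitx1 at day 12 in SSEA1+ cells, with 7 and 24 reads over 3 libraries.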

Other observations

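The epithelial markers, 10 genes such as Cdh1 and Epcam, summed to 1596 to 2262 CPM in SSEA1+ cells of day 12 and 435 to 502 CPM in SSEA1- cells. At the iPS stage they summed to 876 to 1503 CPM in SSEA1+ cells and 356 to 1234 CPM in SSEA1- cells. The 7 measured neural markers summed to 54.5 to 109 CPM in SSEA1+ cells and 71.8 to 192 CPM in SSEA1- cells of the iPS stage, and 102 to 178 CPM in MEFs. The 7 blood cell markers stayed at or below 12.2 CPM in every library.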
